A study of Homo sapiens with 8 samples.

Results

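The untreated expression profile of T24, a line from a human urinary bladder carcinoma, was read from the mock channel of its arrays and set against the mock channels of 3 other cancer lines. On each array the labels give Cy3 to the mock RNA, and 2 of the 8 mock channels in the series came from T24. The members were chosen by line and channel alone, with no measured value. The study hybridised 8 two-colour Agilent whole-genome arrays, each with RNA of a treated culture in Cy5 and of a mock culture of the same line in Cy3. The treated channel of the T24 arrays carried the strands miR-140-5p and miR-140-3p. The other mock channels came from PC3 (3 arrays, with bisamide for 24 h, bisamide for 48 h and miR-125b-1-3p as treatments), C4-2 (1 array, miR-199-3p) and 786-O (2 arrays, miR-532-5p and miR-532-3p). PC3 and C4-2 are labelled prostate cancer and 786-O renal cancer. For all 8 mock channels the labels give no transfection, RPMI 1640 or DMEM as medium, Trizol extraction and a low-input amplification kit. Which medium a line was grown in is not stated, and established lines in culture have no tissue around them.

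Normal urothelium is a layered epithelium whose surface cells make uroplakins under the control of factors such as GATA3, FOXA1 and PPARG, while its basal cells make keratins such as KRT5 and KRT14 with TP63. Bladder carcinoma lines differ in how much of this programme they keep. T24 is known for an activated HRAS allele, and is usually described as a poorly differentiated line. PC3 derives from a bone metastasis of a prostate carcinoma, C4-2 is a subline of the prostate carcinoma line LNCaP, and 786-O is a clear cell renal carcinoma line that lacks functional VHL and so has constant hypoxia-inducible factor activity.

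Values given per array are intensities: the mean Cy3 signal of a spot minus its median local background, in scanner units, before any normalization. Where the values of several arrays are listed, the T24 arrays stand in the order miR-140-5p, miR-140-3p, the PC3 arrays in the order 24 h, 48 h, miR-125b-1-3p, and the 786-O arrays in the order miR-532-5p, miR-532-3p. These values still carry the brightness of each array. Median ratios of T24 intensities were taken over 12737 of the genes well above background on all 8 arrays. They were 0.82 to PC3, 1.75 to C4-2 and 1.87 to 786-O. Ratios of intensities between lines are thus not the differences reported. Differences are of log2 intensities after background correction and quantile normalization, as T24 minus the other line or minus the mean of the 3 lines, with the standard error (SE) from limma. A gene was called higher or lower when limma's p, adjusted by Benjamini-Hochberg over the 20471 genes tested, was under 0.05 and the difference was over 1 on the log2 scale. The offset of 50 units that the correction adds holds differences of dim genes toward 0. A gene that the scanner software did not flag as well above background on every array of a line is called at background there, has only a bound, and its fold is given as "at least". That bound sets the mean of the bright line against the lowest normalized signal of probes well above background on the dim line's arrays, or the dim probe's own where that was higher.

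The T24 channels repeated each other closely. Their log2 intensities differed with a standard deviation (SD) of 0.062 across genes, and 0 genes differed by over 1. For the 786-O pair the SD was 0.09, and for the PC3 pairs it was 0.143, 0.221 and 0.213, the last pair of values both involving the miR-125b-1-3p array, which stood apart from the other PC3 mocks. The deposited names give the T24 arrays the same second RNA code, and likewise the 786-O arrays, while the PC3 arrays carry different codes. The labels do not state whether each pair is 1 RNA. On these codes the T24 arrays, which also differed by less than the PC3 mocks, were averaged and counted as 1 sample, as were the 786-O arrays. The fit thus held 6 samples, and its p-values measure the spread between PC3 mocks, which may be technical, with T24, C4-2 and 786-O assumed to vary like PC3. For genes dim in PC3, such as THY1, FXYD2 and PAX2, that spread is of dim values which the offset holds together. Their SE and p therefore do not measure how such a gene varies in T24, where it is bright. With so few arrays, precision is limited throughout. All arrays lay on 1 slide read in 1 scan, with T24 and 786-O in one row of it and PC3 and C4-2 in the other, so that line, culture, medium and row cannot be told apart. Between 15720 and 19315 genes were well above background on an array, 17773 and 17631 of them in T24, and no spot was saturated. Of 15 reference genes, 0 were called in either direction against the mean of the other lines and their median difference was 0.001, with 2 members higher and 3 lower at an unadjusted limma p under 0.05. Line by line their median was -0.011 against PC3, 0.416 against C4-2 and -0.024 against 786-O. Over all genes tested these medians were 0.004, -0.007 and 0.014. That unadjusted limit was passed by many genes, 22.3% of all those tested being higher and 23.6% lower by it, and the unadjusted counts of lists given here are to be read against these shares.

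Against the mean of the other lines, 635 genes were higher in T24 (3.1% of those tested) and 554 were lower (2.71%). More stringently, 201 genes were higher than in each of the 3 lines (0.982%) and 90 were lower than in each (0.44%). After scaling each array to its 75th percentile in place of quantile normalization, the counts were 951 and 466 against the mean and 289 and 54 against each line, so that the share of higher genes among those called moved from 53.4% to 67.1% and from 69.1% to 84.3%. With the scanner's own processed signal, 588 were higher and 494 lower than each line, a share of 54.3%, and over the genes well above background on all 8 arrays the share was 57.4%. Without PC3 mock replicate 2, the 48 h array, 58 genes were lower than each line in place of 90. By the same rule of each line, 302 and 92 genes set PC3 apart from the other lines, 818 and 448 set C4-2 apart, and 341 and 78 set 786-O apart.

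Line by line, C4-2 was the line with the most calls. Against 786-O, 1496 genes were called (7.31%), 615 higher in T24 (3%) and 881 lower (4.3%). Against PC3, 1658 were called (8.1%), 775 higher (3.79%) and 883 lower (4.31%). Against C4-2, 2935 were called (14.3%), 1416 higher (6.92%) and 1519 lower (7.42%). Across genes, which are not independent replicates, Pearson's r of T24 was 0.926 with 786-O, 0.918 with PC3 and 0.865 with C4-2. Since C4-2 lay farthest away, it weighs on every difference against the mean: without it, T24 was higher than the mean of PC3 and 786-O at 552 genes (2.7%) and lower at 617 (3.01%). Of the genes named here, 23 that were called against the mean were no longer called in that direction once C4-2 was left out of it, among them CD44, CDH1, KLK3, FOXA1 and ADM, and for CAV1, EHF and IER3 the sign turned.

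**Figure D1:**
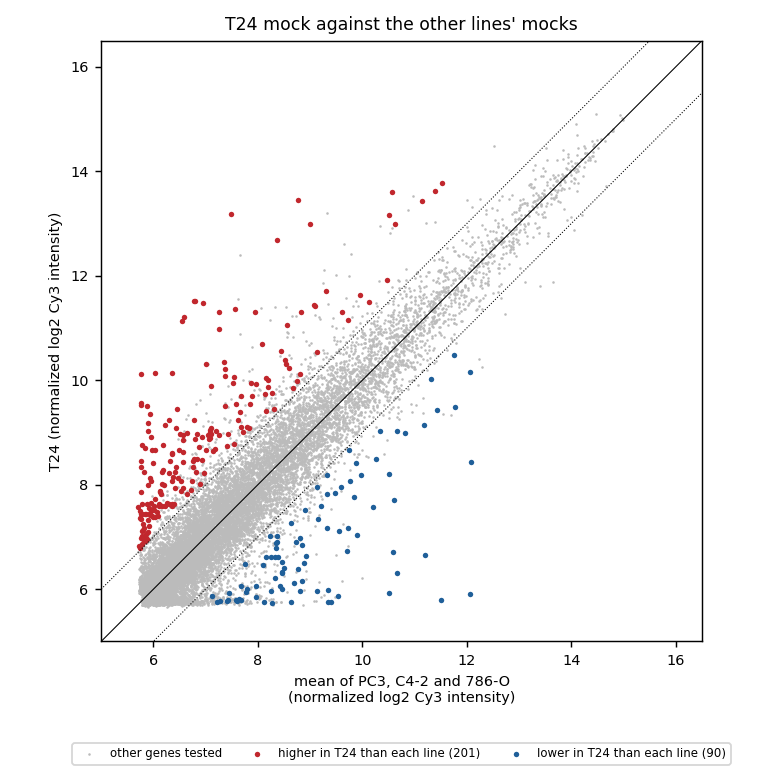
Normalized log2 Cy3 intensity of T24 (vertical axis) against the mean of PC3, C4-2 and 786-O (horizontal axis), 1 point a gene. The solid line marks equality and the dotted lines a difference of 1, and the 201 genes higher than each line and the 90 lower than each are drawn in colour.

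Some of the genes that set T24 apart were detected in it alone. Well above background on both T24 arrays and on none of the other 6 were 330 genes, and 126 were at background on both T24 arrays and above it on the other 6. Among the 201 genes higher than each line, 23 were T24-only in this sense and 97 were above background on all 8 arrays. Their median difference from the mean was 1.79, and 42 of them were over 2 above every line. Among the 90 lower genes, 17 were at background on both T24 arrays, 71 were above it everywhere, the median difference was -1.89, and 18 were over 2 below every line. The detection counts of both sets are to be read against the 20471 genes tested, of which 12750 were above background on all 8 arrays. The 330 and 126 genes are likewise counts over all genes tested. No like count is given for genes detected in another line alone. In RNA of a whole culture, fewer cells with a transcript and less of it per cell cannot be told apart.

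THY1, the surface glycoprotein CD90 of fibroblasts and neurons, headed the genes above every line. THY1 read 1199 and 1257 units on the T24 arrays, against 3.27, 4.33 and 3.90 on the PC3 arrays, 5.71 on the C4-2 array and 3.43 and 3.15 on the 786-O arrays. No array outside T24 passed background, so the groups were far apart. The difference from the mean was 4.36 ± 0.047 (SE, adjusted p = 0.00107), and in folds T24 was at least 19.9-fold above PC3, at least 18.6-fold above C4-2 and at least 20.1-fold above 786-O. Its probe lies at chromosome 11, 119288887 to 119288946 (GRCh37). PADI2, an enzyme that turns arginine of proteins into citrulline, was also seen in T24 alone, at 784 and 820.0 units against at most 4.95 elsewhere. So was TMEM246, at 765 and 876 against at most 5.29, and VSTM1, an inhibitory receptor known from leukocytes, at 433 and 460.0 against at most 8.86. Their differences from the mean were 3.78, 3.80 and 2.98. Like THY1, these genes entered the test through T24 alone. They were dim in PC3, so that their limma p does not measure how they vary in T24.

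Others of the leading 15 had low but measurable RNA in some lines. FEZ1, a carrier protein of axonal transport, read 1242 and 1235 on the T24 arrays and at most 42.7 on the others (difference 4.11 ± 0.17, adjusted p = 0.00285). LY6K, a GPI-anchored Ly6 protein made mainly in testis, read 2335 and 2397 against 119, 47.8 and 68.5 in PC3, 2.93 in C4-2 and 61.2 and 51.1 in 786-O (difference 4.59 ± 0.27, adjusted p = 0.00433). TPM2, the beta tropomyosin of actin filaments, was measurable in all 4 lines. The T24 arrays gave 2704 and 2878 units for TPM2, the PC3 arrays 255, 313 and 166, the C4-2 array 54.2 and the 786-O arrays 95.5 and 99.5. Before normalization the lower T24 value was 8.63 times the highest of the other arrays, and the difference was 3.80 ± 0.31 (adjusted p = 0.00661). CITED4, a cofactor that binds the coactivators CBP and p300, behaved alike, with 7382 and 6749.9 units in T24, 361, 567 and 346 in PC3, 350.0 in C4-2 and 76.3 and 69.3 in 786-O (difference 4.31 ± 0.32, adjusted p = 0.00569). NPNT, the matrix protein nephronectin, TRPV2, a calcium-permeable channel, EBI3, a subunit of interleukin-27, and PLBD1, a lysosomal phospholipase-like protein, had differences of 3.64, 3.42, 3.30 and 3.14.

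At the other end stood CLDN4, a tight junction claudin, and KRT19, a keratin of simple epithelia. For CLDN4 the intensities were 11.3 and 8.10 units in T24, 9838, 10279 and 10442 in PC3, 4947 in C4-2 and 1072 and 1060.5 in 786-O. The T24 array with 11.3 units was flagged well above background and the other was not, and all other arrays lay far above both. The difference of CLDN4 was -6.17 ± 0.073 (adjusted p = 0.00107), at least 127-fold below PC3, at least 99.8-fold below C4-2 and at least 29.5-fold below 786-O. KRT19 read 5.85 and 5.17 units on the T24 arrays, against 12768, 13894 and 18234 on the PC3 arrays, 772 on the C4-2 array and 1069 and 1007 on the 786-O arrays. KRT19 was thus at background in T24 and bright in the other lines, with a difference of -5.72 ± 0.23 (adjusted p = 0.00287) and folds of at least 195, 22.3 and 29.8 below PC3, C4-2 and 786-O. The KRT19 probe lies at chromosome 17, 39679918 to 39679977.

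VAMP8, a SNARE of endosomes and secretory granules, was low but still above background in T24, at 32.7 and 30.8 units against 1079, 1156 and 2748 in PC3, 1236 in C4-2 and 1239 and 1263 in 786-O (difference -4.36 ± 0.55, adjusted p = 0.0136). NUPR1, a stress-response nuclear protein, read 9.57 and 12.7 in T24 and from 137 and 135 in 786-O up to 12865 in C4-2 (difference -4.58 ± 0.17, adjusted p = 0.00264). FADS2, a fatty acid desaturase, and DHRS3, a retinaldehyde reductase, differed by -3.86 and -2.99. KCNMA1, the pore of the BK potassium channel, KANK2, an adaptor between adhesions and microtubules, and DPYSL4, a collapsin response mediator, were at background on both T24 arrays and above it on all 6 others, with differences of -3.64, -3.59 and -2.54. The 5 KCNMA1 probes ran from -3.64 to -0.185. DPP4, the dipeptidyl peptidase CD26, PXDN, the matrix peroxidase peroxidasin, and FAM107B differed by -2.46, -3.35 and -2.84.

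**Figure D2:**
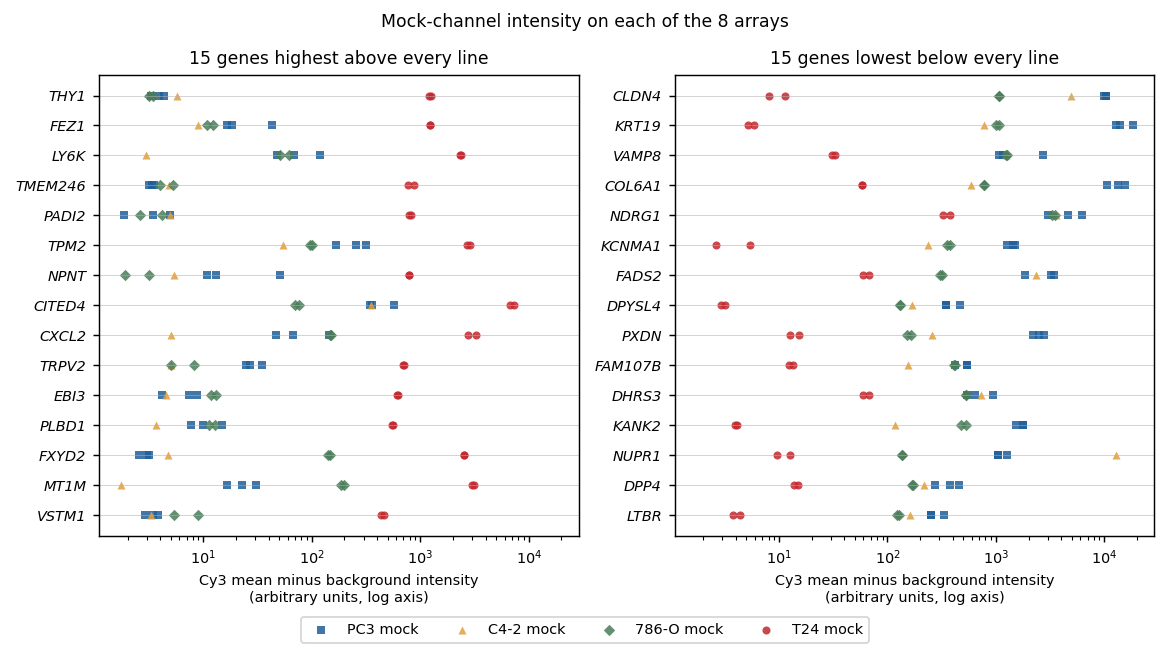
Cy3 intensity minus local background (arbitrary units, log axis) of the 15 genes highest above every other line (left) and the 15 lowest below every other line (right), with 1 point for each of the 8 arrays, coloured by line. In each row of the left panel both T24 points lie to the right of all others, as for THY1 with 1199 and 1257 units, and in each row of the right panel they lie to the left.

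The markers of urothelium were checked because the labels call T24 bladder cancer. Of 23 genes of urothelial differentiation, 15 were tested and 10 were above background in T24. UPK1B, UPK2 and GATA3 passed background on all arrays of no line, and UPK3A read 5.06 and 5.26 units in T24, at background. UPK1A was faint, at 13.7 and 19.9 units in T24 against at most 8.79 elsewhere, with a difference of 0.25 that did not pass (adjusted p = 0.062). FOXA1, the pioneer factor of the luminal programme, was lower in T24, at 9.96 and 11.1 units against 364, 445 and 695 in PC3 and 291 in C4-2, but 7.43 and 6.58 in 786-O (difference -1.90 ± 0.31, adjusted p = 0.022, and 0.0701 without PC3 mock replicate 2). The T-box factor TBX3 and the Ets factor EHF were also lower (-1.92 and -1.16), EHF through C4-2 alone, since it was at background in T24, PC3 and 786-O. PPARG, at 106 and 113 units, and KRT20, at background in T24, did not pass, although PPARG was lower without C4-2 (-1.22, adjusted p = 0.0233). In all, 0 members were higher, 3 were lower and the median difference was -0.53, against -0.029 over all genes, with 2 higher and 7 lower at an unadjusted limma p under 0.05. The median was 0.013 against PC3, -0.86 against C4-2 and 0.028 against 786-O. The line is therefore called T24 here, after its label, and no urothelial cell type is given to it.

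Basal markers were no more visible. KRT5, KRT14 and TP63 were at background on the arrays of every line. Of 8 tested genes of the basal and squamous list, SFN, the 14-3-3 protein sigma, and the hyaluronan receptor CD44 were higher (3.33 and 2.26 against the mean), and the serpin SERPINB5 was lower (-1.49). The T24 arrays gave 2894 and 2772 units for SFN, the PC3 arrays 3071, 3039 and 4242, the C4-2 array 11.4 and the 786-O arrays 45 and 38.8. SFN in T24 thus lay near PC3, from which it differed by 0.18 after normalization, and above the other lines. The other CD44 probe differed from the mean by 0.036. The representing probe of CD44 read 4509 and 4504 in T24, 3005, 2809 and 3037 in PC3 and 3374 and 3359 in 786-O but 5.02 in C4-2, where it was at background, and after normalization it differed by -0.45 from 786-O.

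Kidney factors were found in T24 as well as in 786-O. PAX2, a paired box factor of the developing kidney, read 533 and 602 units in T24, 106 and 94.2 in 786-O and at most 3.73 on the prostate arrays, and was higher than in each line (difference 2.65 ± 0.058, adjusted p = 0.00178). PAX8, a related factor of kidney and thyroid, read 373 and 405 in T24 against 218 and 222 in 786-O, 14.7, 11.95 and 14.2 in PC3 and 4.29 in C4-2. It was higher than the mean (1.76 ± 0.050, adjusted p = 0.00213) but not than 786-O, from which it differed by -0.17 after normalization although its T24 intensities were the larger ones. FXYD2, the gamma subunit of the Na,K-ATPase that is best known from kidney tubules, read 2507 and 2524 in T24, 148 and 141 in 786-O and at most 4.68 in the prostate lines (difference 4.62 ± 0.047, adjusted p = 0.00107), with differences from 0.438 upward over its 3 probes. Over the 23 tested genes of the kidney and hypoxia list, 3 were higher, 2 were lower and the median was -0.137. Line by line, 4 were higher and 0 lower than in PC3 (median 0.165), 5 and 3 than in C4-2 (0.019), and 2 and 7 than in 786-O (-0.466). The hypoxia-induced genes went both ways: ADM, adrenomedullin, was higher (1.56) and VEGFA and the carbonic anhydrase CA12 were lower (-2.90 and -1.44), while CA9 was at background on all arrays. VEGFA read 75.2 and 71.7 in T24, 105, 97.3 and 192 in PC3, 2746 in C4-2 and 680.4 and 687 in 786-O.

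Prostate genes were read next. Of 21 tested genes of the prostate list, 10 were lower in T24 and the median was -1.23, with medians of -0.22 against PC3, -3.12 against C4-2 and -0.003 against 786-O. Without C4-2, 3 were lower and the median was -0.215. KLK3, prostate-specific antigen, read 3.50 and 3.74 units in T24 and 13574 in C4-2, and was at background in PC3 and 786-O. NDRG1, a gene induced by androgen and by hypoxia, was the member that was lower than in each line. For NDRG1 the intensities were 325 and 374 units in T24, 3043, 4627 and 6284 in PC3, 3595 in C4-2 and 3299.8 and 3527 in 786-O. The dimmest of the other arrays was 8.14 times the higher T24 value, with a difference of -3.65 ± 0.46 (adjusted p = 0.0135, and 0.0521 without PC3 mock replicate 2).

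Genes of inflammatory signalling held the most higher calls of the 20 lists. Chemokines of the CXCL family draw neutrophils, and their promoters are classic targets of NF-kB. The subunits NFKB1 and RELA of this factor enter the nucleus when the inhibitor NFKBIA is degraded. Of 27 tested members of the list of inflammatory cytokines and NF-kB targets, 12 were higher and 1 was lower than the mean, the median was 0.66 and 6 members were higher than in each line. Against the lines 1 by 1 there were 12 higher and 0 lower for PC3 (median 0.86), 12 and 0 for C4-2 (0.71), and 6 and 6 for 786-O (0.41), so that in 786-O as many members were above T24 as below it. Without C4-2 in the mean, 11 were higher and 3 lower, with a median of 0.63.

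Among the ligands, CXCL1 was higher than in each line. CXCL1 read 9282 and 13149.8 units on the T24 arrays, against 965, 997 and 1429 on the PC3 arrays, 2.93 on the C4-2 array and 1209.8 and 1179 on the 786-O arrays. The lower T24 value was 6.49 times the highest of the other arrays, and the difference was 4.68 ± 0.22 (adjusted p = 0.0034). CXCL2, its close paralogue, was read next. The T24 arrays gave 2759.6 and 3265 units for CXCL2, the PC3 arrays 67.4, 46.7 and 145, the C4-2 array 5.02 and the 786-O arrays 150.0 and 147. The groups did not overlap and the difference was 4.53 ± 0.33 (adjusted p = 0.00564). CXCL3 was higher by 1.48, the chemokine CCL20 by 1.43 and CSF3, the granulocyte colony-stimulating factor, by 1.86, with CSF3 at 191 and 161 units in T24 and at background on all other arrays. The other CSF3 probe differed from the mean by 0.422. IL6 was higher than the mean (2.66 ± 0.12, adjusted p = 0.0031), with 872 and 997 units in T24 and 418 and 407 in 786-O, the nearest line. CXCL5 went the other way (-1.07), at 38.04 and 40.6 in T24 against 439.5 and 425 in 786-O, and without 786-O its difference was -0.014. CXCL8, interleukin-8, read 88.1 and 99.9 in T24 and 62.7, 34.6 and 70.1 in PC3 (difference 0.53, adjusted p = 0.0919, but 2.17 with an adjusted p of 0.0228 in the scanner's processed signal), and IL1B, at 11.2 and 7.92, had a difference of -0.77 that did not pass (adjusted p = 0.655). CXCL1, CXCL2 and CXCL3 are near copies of each other, so that their probes may share signal.

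Within the pathway, the subunit genes RELB and NFKB1 were higher (3.08 ± 0.31 and 1.07 ± 0.084), NFKB2 missed the size threshold at 0.68 but was called at 1.87 in the scanner's processed signal, and RELA, at 0.35, did not pass (adjusted p = 0.0513). The inhibitors NFKBIA and TNFAIP3, both induced by NF-kB itself, were higher by 1.64 and 1.22. BIRC3, an inhibitor of apoptosis at the TNF receptor and a regulator of the non-canonical branch, was among the members higher than in each line. For BIRC3 the intensities were 2121 and 2114 units in T24, 44.4, 30.6 and 63.8 in PC3, 22.7 in C4-2 and 254 and 268 in 786-O. The lower T24 value was 7.88 times the nearest array, and the difference was 3.72 ± 0.15 (adjusted p = 0.00298). Outside the list, and picked after their values were seen, a ligand and its receptor moved in opposite directions. LTB, lymphotoxin beta, read 348 and 359 units in T24 and was at background on all other arrays (at most 8.46, difference 2.70, adjusted p = 0.00178), whereas LTBR, its receptor, read 3.79 and 4.36 in T24, at background, against 249.6, 252 and 331 in PC3, 161 in C4-2 and 129 and 121 in 786-O (difference -2.35 ± 0.12, adjusted p = 0.00365).

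**Figure D3:**
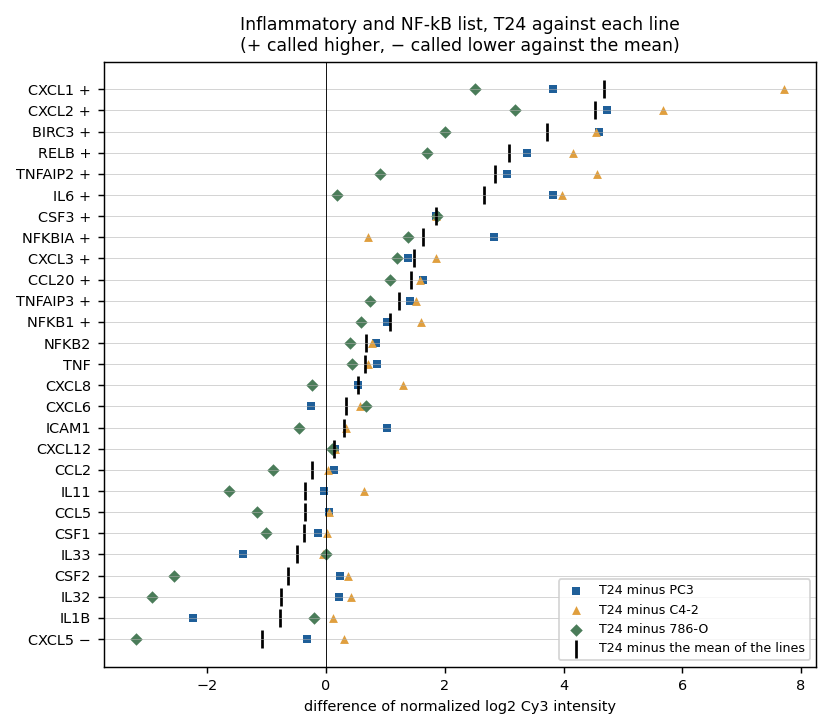
Difference of normalized log2 Cy3 intensity between T24 and each line (coloured points) and the mean of the lines (black ticks) for the 27 tested members of the inflammatory and NF-kB list. CXCL1 and CXCL2 lie farthest to the right against the mean, at 4.68 and 4.53, and CXCL5 lies at -3.20 against 786-O.

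The promoters of the chemokine cluster and of BIRC3 are shown because CXCL1, CXCL2 and BIRC3 had the largest differences in the list, CXCL3 is their neighbour, and letters of the kind NF-kB binds can be read in all 4. They are the 250 bases before the start of each gene in RefSeq (GRCh38.p14), printed 5′ to 3′ on the strand of the gene, with capitals on any of the words GGAATTTCC, GGACTTTCC, GGGATTTCC and GGGCTTTCC, searched on both strands.
CXCL1 (chr4:73869143-73869392, plus strand): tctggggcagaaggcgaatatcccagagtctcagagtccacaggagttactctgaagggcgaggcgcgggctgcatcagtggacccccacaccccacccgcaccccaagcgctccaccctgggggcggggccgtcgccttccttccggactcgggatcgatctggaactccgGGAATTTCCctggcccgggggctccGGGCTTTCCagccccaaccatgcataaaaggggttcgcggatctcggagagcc
CXCL2 (chr4:74099196-74099445, minus strand): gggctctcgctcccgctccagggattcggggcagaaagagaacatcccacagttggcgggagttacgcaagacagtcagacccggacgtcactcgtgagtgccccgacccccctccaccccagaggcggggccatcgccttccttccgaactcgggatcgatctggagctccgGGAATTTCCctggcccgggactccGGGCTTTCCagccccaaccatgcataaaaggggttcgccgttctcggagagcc
CXCL3 (chr4:74038690-74038939, minus strand): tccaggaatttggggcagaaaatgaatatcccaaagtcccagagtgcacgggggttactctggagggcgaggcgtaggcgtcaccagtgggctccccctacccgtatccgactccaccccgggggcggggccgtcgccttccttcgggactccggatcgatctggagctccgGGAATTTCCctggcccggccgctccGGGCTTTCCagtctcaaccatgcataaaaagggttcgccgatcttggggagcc
BIRC3 (chr11:102317234-102317483, plus strand): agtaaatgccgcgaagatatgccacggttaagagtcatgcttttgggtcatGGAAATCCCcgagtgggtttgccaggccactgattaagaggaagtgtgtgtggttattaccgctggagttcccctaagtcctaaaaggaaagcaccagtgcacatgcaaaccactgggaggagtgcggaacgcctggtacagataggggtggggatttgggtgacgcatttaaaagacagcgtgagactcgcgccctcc
CXCL1 and CXCL3 hold GGAATTTCC starting 78 bases before the start and GGGCTTTCC 53 bases before it, and CXCL2 holds them at 77 and 53. BIRC3 holds GGGATTTCC on the opposite strand, 199 bases before the start. Of 35116 promoters of the same length, 0.413% held GGAATTTCC, 0.333% GGACTTTCC, 0.327% GGGATTTCC and 0.547% GGGCTTTCC, and 1.6% held any of them. Promoters were found for 22 of the tested list members, of which 13 held a word in at least 1 promoter: 7 of the 10 that were higher in T24 and 6 of the 12 that were not. These are counts of genes, whereas the percentages are of promoters, so the 2 are not in the same unit. The list was written with NF-kB targets in mind, so the share of members with a word is a property of the list, and a match in letters is no sign of binding in these cells.

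Epithelial adhesion genes were mixed. Of 32 tested, 8 were lower and 2 higher, and the median was -0.589. Against C4-2 the median was -1.74, whereas it was -0.039 against PC3 and 0.024 against 786-O, and without C4-2 the counts were 5 lower and 4 higher with a median of -0.017. CLDN4, KRT19 and PKP3, a desmosomal plakophilin, were lower than in each line, PKP3 with 11.9 and 13.3 units in T24 against 91.8 and 94.7 in 786-O, the dimmest other line (difference -3.16 ± 0.27, adjusted p = 0.0069). CLDN3 (-3.36), CLDN7 (-1.52), the membrane protein MAL2 (-3.30) and the splicing factor ESRP2 (-1.46) were lower than the mean. CDH1, E-cadherin, was at background in T24 at 4.34 and 4.20 units, and was lower than the mean (-1.55) through C4-2, where it read 775. CLDN1, another tight junction claudin, went against the rest. CLDN1 read 1224 and 1238 units on the T24 arrays, against 11, 17.7 and 33.9 on the PC3 arrays, 2.76 on the C4-2 array and 66.7 and 60.98 on the 786-O arrays. Its lower T24 value was 18.4 times the next array, and the difference was 3.77 ± 0.15 (adjusted p = 0.00273), while MARVELD2, tricellulin, was higher by 1.17.

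Mesenchymal genes went both ways, by line. Of 28 tested, 3 were higher and 6 lower than the mean, with a median of -0.232. Against C4-2, 11 were higher and 3 lower (median 0.277), against PC3 3 and 7 (-0.309), and against 786-O 1 and 12 (-0.817). Without C4-2 in the mean there were 2 higher and 10 lower, and without 786-O 7 higher and 4 lower with a median of -0.009. THY1, CAV1, the coat protein of caveolae (1.47), and EMP3 (2.15) were higher than the mean. CAV1 was at background in C4-2, and without that line its difference was -0.071. FN1, fibronectin, was lower than in each line. It was at background in T24, at 4.11 and 3.24 units, and read 71.6, 125 and 73.6 in PC3, 42.1 in C4-2 and 108 and 104 in 786-O (difference -1.47 ± 0.22, adjusted p = 0.0192, and 0.0546 without PC3 mock replicate 1). FSTL1, LOXL1, the cadherin CDH11, CALD1 and SNAI1 were lower than the mean, by sizes from -1.06 to -1.66. VIM, vimentin, read 9102 and 9689.5 in T24, under PC3 (12583, 12115 and 14309) and 786-O (17607 and 15539) and above C4-2 (436), and its difference of 0.82 was under the size threshold, as was that of CDH2, N-cadherin (-0.82). Both depended on the lines in the mean. VIM was higher by 1.77 without 786-O and by 1.26 without PC3, but both of these means kept C4-2, where VIM was far dimmer. CDH2 was lower without C4-2, at -2.28.

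Matrix genes were mixed as well. Of 29 tested collagens, laminins and related basement membrane genes, 8 were lower, 5 were higher and the median was -0.634, and without C4-2 there were 11 lower and 2 higher. COL6A1, a chain of collagen VI, was lower than in each line. The T24 arrays gave 58.7 and 57.7 units for COL6A1, the PC3 arrays 13236, 15413 and 10495, the C4-2 array 588 and the 786-O arrays 776 and 775. The nearest other array was 10.03 times the higher T24 value, and the difference was -4.54 ± 0.26 (adjusted p = 0.00416). LAMA3, a chain of laminin-332, was likewise lower than in each line (-2.16), and HSPG2, perlecan, lower than the mean (-3.45 ± 0.53, adjusted p = 0.0195, and 0.0652 without PC3 mock replicate 2), although the 4 probes of HSPG2 ran from -3.45 to -0.074. COL18A1, COL4A2 and COL4A1, chains of collagens XVIII and IV, were higher (2.96, 2.06 and 1.09), as was LAMB2 (1.20), which passed against each line. Of 27 tested proteases and inhibitors, 4 were lower and 1 was higher, with a median of -0.281. PLAU, urokinase, read 9577 and 9579.8 in T24, 8938, 5969 and 6122 in PC3, 9.26 in C4-2 and 473 and 468 in 786-O (difference 3.89 ± 0.30, adjusted p = 0.00597), so that PC3 came close to it. PLAT, tissue plasminogen activator, was at background in T24 and lower than the mean (-1.91), as were ADAM19, ADAMTS1 and TIMP2 (-1.92, -1.74 and -1.51), with -0.088 for the other ADAM19 probe. Of 16 tested integrins, ITGA6 and ITGAV were higher (1.54 and 1.16) and 0 were lower, with 5 lower at an unadjusted limma p under 0.05, a share to be set beside the 23.6% of all genes.

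HRAS itself was at 501 and 519.8 units in T24, 444, 371 and 393 in PC3, 106 in C4-2 and 107 and 106 in 786-O. Its difference of 0.91 ± 0.093 passed the test (adjusted p = 0.00935) but not the size threshold, which it did pass in the scanner's processed signal (1.17, adjusted p = 0.015) and without PC3 (1.05). An array of this kind reads no allele. Of 26 RAS genes and regulators, 0 were called in either direction, with a median of 0.217, with 14 higher and 5 lower at an unadjusted limma p under 0.05, the limit that 22.3% and 23.6% of all genes passed. Of 29 tested output genes of the RAS-MAPK pathway, 8 were higher and 1 was lower, with a median of 0.23. The line-by-line medians differed here too: the median was 1.17 against C4-2, -0.28 against PC3 and 0.135 against 786-O, and without C4-2 there were 4 higher and 3 lower with a median of -0.098. EGR1, an immediate early transcription factor, was the member that was higher than in each line, at 161 and 155 units in T24 against at most 20.2 (difference 1.54 ± 0.056, adjusted p = 0.00264). EREG, a ligand of the EGF receptor, and LIF, a cytokine of the interleukin-6 family, were higher than the mean (1.81 and 2.03, with 0.161 for the other LIF probe), as were KCNN4, SPRY2, SPRY4, IER3 and UPP1, although IER3 differed by -0.214 without C4-2. DUSP4, a phosphatase that acts on MAP kinases, was lower (-2.25 ± 0.067, adjusted p = 0.00214), at 15.7 and 15.9 units against 1039, 1036 and 1162 in PC3, 205 in C4-2 and 29.5 and 27.6 in 786-O. Of 32 tested receptor tyrosine kinases, MST1R was higher (1.54) and 0 were lower, with 9 lower at an unadjusted limma p under 0.05, a share near that of all genes. EGFR read 155 and 160.4 and MET 1759 and 1984 in T24, with differences of -0.060 and 0.60 under the size threshold, and MET turned to -1.50 without C4-2 but was 1.70 without 786-O (adjusted p = 0.0029) and 1.60 without PC3, so that its direction depended on the lines in the mean.

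Among cell cycle genes and tumour suppressors, 3 of 28 were higher and 1 was lower, with a median of 0.107. CCNE1, cyclin E1, was higher than in each line, at 934 and 925 in T24 against at most 372 (difference 1.60 ± 0.12, adjusted p = 0.00607). CDKN1C, the inhibitor p57, was lower than in each line, at 42.8 and 47.7 against 354, 397 and 570.2 in PC3, 892 in C4-2 and 95.8 and 89.5 in 786-O (difference -2.39 ± 0.21, adjusted p = 0.0076). CDK6 and NF2 were higher than the mean (1.49 and 1.20), with 0.172 for the other NF2 probe. CDKN2A read 820.0 and 893 in T24, between PC3 (2199, 2538 and 2338) and C4-2 (286), with 786-O at 26.5 and 25.2. Its difference from the mean, 0.881, was under the size threshold, with 0.421 for the other probe. The size threshold was passed in the scanner's processed signal (1.335), without C4-2 (1.042) and without PC3 (1.838).

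Metallothioneins, small cysteine-rich proteins that bind zinc and copper, were read as a family after MT1M appeared among the leading genes. Of 15 on the array 11 were tested, and 7 were higher than in each line. For MT1M the intensities were 3137 and 3029 units in T24, 22.5, 16.6 and 30.3 in PC3, 1.73 in C4-2 and 198 and 185 in 786-O. Here the lower T24 value was 15.3 times the nearest array, and the difference was 4.73 ± 0.090 (adjusted p = 0.0016). MT1E, MT1F, MT1B, MT1L, MT1A and MT1HL1 were higher by 3.04, 2.46, 2.29, 2.24, 2.24 and 2.64. MT2A, at 16229 and 19892 units in T24, did not pass (0.51, adjusted p = 0.249), nor did MT1X (0.002, adjusted p = 0.993). The MT1 genes and pseudogenes are near copies of each other, and their probes may share signal, so that 7 genes are not 7 independent measurements. Of 29 tested targets of NRF2, the factor of the oxidant response, 3 were higher and 2 lower, with a median of -0.208. HMOX1, heme oxygenase, was higher (2.64 ± 0.40, adjusted p = 0.0193, and 0.0623 without PC3 mock replicate 1), at 5969.8 and 5939.7 in T24 against 2623 in C4-2, 261, 201 and 511 in PC3 and 428 and 411 in 786-O. FTL and AKR1B1 were also higher (1.23 and 1.15), while SLC7A11, the cystine transporter, and TXNRD1 were lower (-1.45 and -1.04).

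HOX genes carry the positional identity of a tissue. Of 39 on the array, 27 were well above background in T24, 25 in 786-O, 17 in C4-2 and 16 in PC3, a count made after the values were seen. Of all 20471 genes tested, 83.4% were well above background in T24, 74.3% in 786-O, 77.4% in C4-2 and 86.7% in PC3. The HOXD cluster divided the lines, with 6 of its 9 genes detected in T24, 5 in 786-O and 0 in both prostate lines, and of the 10 HOXB genes 9, 7, 3 and 4 were detected in T24, 786-O, C4-2 and PC3. Of 31 tested, 6 were higher and 1 was lower, with a median of 0.143. By line, 9 were higher and 2 lower than in PC3 (median 0.377), 8 and 2 than in C4-2 (0.433), and 3 and 4 than in 786-O (-0.226). HOXB2 was higher than the mean (2.73 ± 0.23, adjusted p = 0.00681), at 786.5 and 836 units against 202 and 211 in 786-O and 7.87, 7.85 and 40.5 in PC3. HOXA7 and HOXC4 were higher than in each line (1.72 and 1.82), and HOXB4, HOXC8 and HOXC9 higher than the mean. HOXB13, the prostate member, was lower (-2.85), at 57.4 and 56.05 in T24, 7437, 9518 and 9212 in PC3, 659 in C4-2 and at background in 786-O.

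Cancer-testis antigens are normally restricted to germ cells and are switched on in many tumours. Of 18 tested, 7 were lower and the median was -0.84, but without C4-2 there were 3 lower and the median was -0.04. MAGEA6 was at background in T24 and read 2506 in C4-2, 263 and 249.9 in 786-O and 87.6, 83.8 and 37 in PC3 (difference -3.34 ± 0.26, adjusted p = 0.00625). MAGE family probes may share signal in the same way as those of the metallothioneins. Of 36 tested genes of antigen presentation and interferon response, 2 were higher and 2 lower, with a median of -0.114. IRF9, a subunit of the interferon-stimulated factor, was higher than in each line (1.33), and IRF7 higher than the mean (1.21). The other IRF9 probe differed from the mean by 0.265. BST2, tetherin, was at background in T24 and in PC3 and read 50.9 in C4-2 and 1280.4 and 1202 in 786-O (difference -2.23). HLA-C was lower (-1.04), with 786-O the brightest line at 4917 and 4757 units against 1384 and 1470.4 in T24. Against 786-O alone, 2 of the list were higher and 11 lower (median -0.54). Without 786-O in the mean the differences of IRF7, BST2 and HLA-C were 0.429, -0.721 and -0.282, and none of these was called. Markers of blood and endothelial cells, 6 tested, gave 0 calls and a median of -0.06, with 1 higher at an unadjusted limma p under 0.05, and CD14 read 40.7 and 40.1 units in T24, but was called higher with the scanner's processed signal (2.51, adjusted p = 0.00248).

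**Figure D4:**
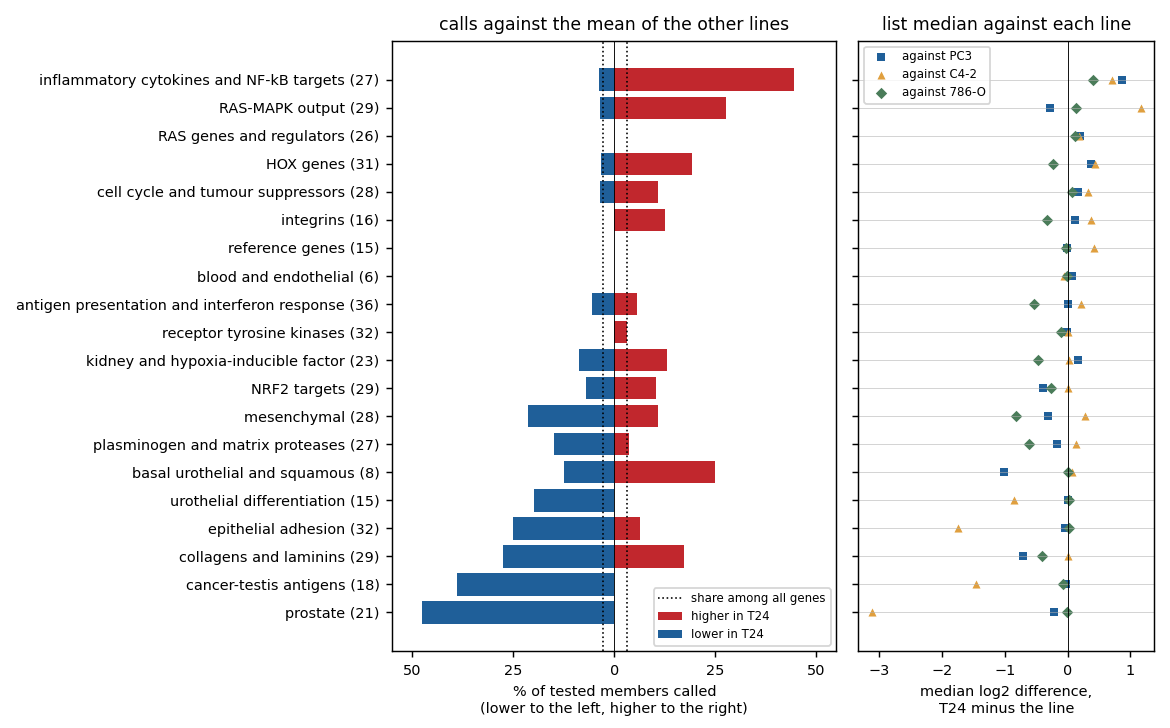
Left, the percentage of tested members of each of the 20 gene lists (number tested in brackets) called lower (to the left) or higher (to the right) in T24 than the mean of the other lines, with dotted lines at the shares among all genes tested. Right, the median log2 difference of each list against each line, where prostate genes lie at -3.12 against C4-2 and near 0 against the other lines.

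Position along the genome was read last, on the GRCh37 coordinates of the probes, and the regions were picked after their values were seen. Chromosome 19 held more calls than the genome as a whole, with 76 of 1280 tested genes higher (5.94%) and 43 lower (3.36%), and 26 and 16 higher and lower than each line. Chromosomes 17, 20 and 16 followed, with 5.55%, 5.35% and 4.98% of tested genes higher. The 16 lower genes all lay between KANK2 (start 11275045) and NDUFB7 (end 14682759). In medians over 25 consecutive tested genes, the lowest of 19779 windows of the genome was chromosome 19, 12841796 to 13265645, from C19orf43 to IER2, at -0.939, where the 1st and 99th percentiles of all windows were -0.339 and 0.437. Against the lines 1 by 1 its median was -1.10 for PC3, -0.777 for C4-2 and -0.733 for 786-O, so no single line made it low. Of its 25 genes, 20 were below every other line, against 20.6% of all genes tested, 12 were lower than the mean and 5 lower than each line. The window was picked for its low median, so high counts of low genes are part of that choice.

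Within that window, PRDX2, a peroxiredoxin, differed by -1.70 ± 0.15 (adjusted p = 0.00723). PRDX2 read 53.01 and 56.2 units on the T24 arrays, against 533, 541 and 454 on the PC3 arrays, 202 on the C4-2 array and 99.5 and 88.9 on the 786-O arrays. Its normalized T24 level was lower than that of each line. RNASEH2A, a subunit of ribonuclease H2, GADD45GIP1, a mitochondrial ribosomal protein, and STX10, a syntaxin, were also lower than in each line (-1.46, -1.51 and -1.56). CALR, the chaperone calreticulin, and NACC1 were lower than the mean (-1.23 and -1.74). JUNB, at -0.43, was under the size threshold, but was called at -1.98 in the scanner's processed signal. The highest windows of the genome lay on the long arm of the same chromosome, at 44593675 to 45541444 (from ZNF284 to RELB, median 0.697) and 47507274 to 48711576 (0.684). The first of them ends at RELB, which also counts among the NF-kB genes above.

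**Figure D5:**
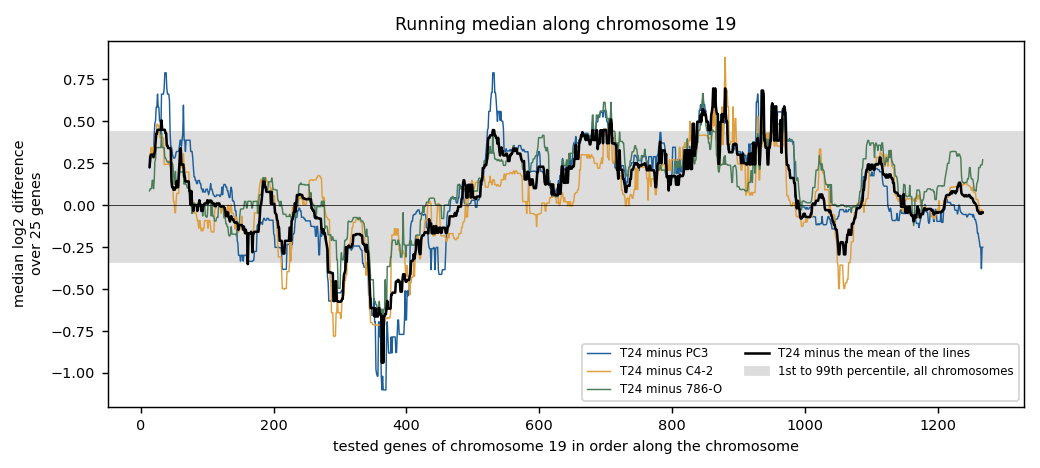
Running median of the log2 difference over 25 tested genes along chromosome 19 (horizontal axis, genes in order), for T24 minus each line (coloured) and minus the mean of the lines (black), with the 1st to 99th percentile of such windows on all chromosomes in grey. The black line leaves the grey band downward to -0.939 with all 3 coloured lines below 0, and upward to 0.697 and 0.684 farther along.

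The treated channel gave a second reading of the same lines. In Cy5, which held RNA of cultures given a miRNA or bisamide, all 201 genes higher than each line in Cy3 were again highest in T24 and all 90 lower genes were again lowest, against 23% and 19% of all genes. Of these, 167 and 75 were beyond 1 against every line, and the medians were 2.02 and -2.30. Both channels share the slide and the line, and since every Cy5 culture was treated, this is not a reading of untreated cells. In Cy5 the difference from the mean was 5.02 for THY1, 5.69 for CXCL1, 3.66 for BIRC3, 2.53 for PAX2, -6.88 for CLDN4 and -6.19 for KRT19.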

How the data were processed

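Mock RNA was read in Cy3 and treated RNA in Cy5 on 8 Agilent arrays of 4 lines. The authors extracted the spots with Agilent Feature Extraction 11.5.1.1, per the file headers. For every spot the deposited files hold a mean intensity and the median of the background around it, on a linear scale without normalization, with flags for outlier, saturated and well above background spots. The deposited log10 ratios of Cy5 over Cy3 and the series table hold treated over mock and were not used. Coordinates are those of GRCh37.

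From the deposited intensities, Cy3 was corrected by normexp with an offset of 50 and quantile normalized between arrays with limma 3.58.1 in R 4.3.3. Control spots and outlier spots were left out, and 60901 spots gave 58201 probes of 43317 genes. Spots of a probe were averaged, and a gene was represented by its probe with the highest mean intensity over the lines. Tested were the 20471 genes well above background on all arrays of at least 1 line. The T24 pair and the 786-O pair were each averaged, the 6 samples were fitted with lmFit and eBayes, and T24 was contrasted with each line and with their mean. The residual degrees of freedom were 2 and the prior degrees of freedom 1.76. The procedure was tested on simulated data. Named were 23 set genes, the 15 genes farthest above and the 15 farthest below every line, and up to 6 per gene list by size of difference. Further members called in a list, pathway members named with them and the genes of the picked regions were added after their values were seen. The line, the 20 lists (593 symbols) and the comparisons were chosen with earlier results of these data known. The metallothionein family, the HOX clusters, the windows along the genome, LTB and the promoter words were chosen after values were seen. Alternatives changed the background correction, the normalization, the signal, the filter, the probe rule, the samples, the variance prior, the size threshold, the channel and the lines compared. Genes of the Y chromosome were not named, and some other genes that the rule names are not reported here.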

Additional observations from a re-analysis of the deposited data

How the results depend on the processing

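Counts are given in the order higher and lower than the mean, higher and lower than each line, and different from PC3, C4-2 and 786-O. With an offset of 0 they were 2157, 1988, 592, 350, 4887, 7276 and 4512, with plain subtraction 2156, 1991, 591, 343, 4879, 7269 and 4510, uncorrected for background 1126, 1026, 359, 166, 2769, 4536 and 2558, and with the scanner's processed signal 2425, 2852, 588, 494, 5672, 7925 and 4830. A log2 threshold of 2 left 130, 100, 42, 18, 379, 742 and 366. Over the genes above background on all 8 arrays, 386 were higher and 347 lower than the mean, 105 were higher than each line and 963 differed from 786-O. With 75th percentile scaling 54 were lower than each line. In the Cy5 channel 889 were lower than the mean, 136 lower than each line and 2390 differed from 786-O. Without PC3, an alternative added after seeing the data, 905 were lower than the mean. In that alternative the T24 and 786-O arrays were not averaged, so its p-values measure only the spread within those pairs. Leaving out 1 array of T24, PC3 or 786-O at a time gave 571 to 653, 461 to 602, 170 to 213, 58 to 95, 1355 to 1810, 2739 to 3034 and 1132 to 1614, with 58 reached without PC3 mock replicate 2. Of the 201 and 90 genes outside every line, 179 and 52 were shared with 75th percentile scaling, 189 and 81 with cyclic loess, 180 and 89 with the scanner's signal and 157 and 72 with Cy5. All other alternatives kept each count within 1.5 times. Among the named genes called with or without C4-2, the difference turned sign without it for CAV1 (-0.071), EHF (0.036), IER3 (-0.214) and MET (-1.5). Sign changes of genes called in neither case were not listed. Without C4-2, calls were lost for 23 named genes, those of CAV1, EHF and IER3 included, and among them ADM (0.33), AKR1B1 (0.055), CD44 (0.29), CDH1 (-0.043), CDK6 (0.35), CLDN7 (-0.074), FTL (0.9), ITGAV (0.86), KLK3 (-0.004), NF2 (0.49) and NFKB1 (0.81). Without PC3 mock replicate 1 and replicate 2, 12 calls each were lost, with adjusted p in limma for NFKBIA of 0.0723, MT1F of 0.0517, ADM of 0.0513, MAL2 of 0.0706, KCNN4 of 0.114, CAV1 of 0.105 and PLAT of 0.108, and without replicate 3 those of CXCL5 (0.0564) and SLC7A11 (0.0619). The cause of these moves was not tested. The comparison was between lines and was not paired, and the labels give the samples no replicate numbers. Without 786-O 10 calls were lost and without PC3 11. The probes of EGFR disagreed in sign. Of the genes with several probes, FXYD2, HSPG2, CD44, LIF, KCNMA1, ADAM19, CSF3, IRF9 and NF2 had a probe that moved by under 0.5 beside the one that was called. C4-2 was measured once and T24 and 786-O were counted once, which limits all p-values, and dim genes have bounds only.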
